A study of Macaca mulatta with 12 samples.

Results

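Molecular chaperones of the cytosol, the mitochondrion and the endoplasmic reticulum (ER), together with the transcription factor XBP1, were followed across 4 groups of rhesus macaque macrophage libraries. The 10 genes chosen were HSPH1, HSPA8, HSP90AA1, HSP90AB1 and DNAJB1 of the cytosol, HSPD1 and HSPE1 of the mitochondrion, HSPA5 and HSP90B1 of the ER, and XBP1. They were picked by name, and 9 of the 10 had a row among the 32386 rows of the count table. HSP90AA1 was not analysed here.

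Blood was taken from macaques (Macaca mulatta) that had been transplanted with their own CD34+ cells edited by CRISPR/Cas9, in a study titled for TET2-mutant clonal hematopoiesis. Macrophages positive for CD14 and CD163 and negative for CD16 were sorted 4.5 months (early) or 19 months (late) after transplantation. They were held for 8 h at 250000 cells per well, either untreated (CTL, unstimulated) or with 100 ng/ml lipopolysaccharide and 20 ng/ml interferon-gamma (ACT, stimulated). The 4 groups, early unstimulated, early stimulated, late unstimulated and late stimulated, held 3 libraries each. All 4 groups thus share the transplant of edited autologous cells, and no group from an unedited or untransplanted animal was analysed here. The labels do not give the share of edited cells in a sorted population. One field of the labels names lipopolysaccharide alone as the treatment. The labels do not say whether the 3 replicates are animals or wells, so the p-values may reflect technical spread alone. A batch shared by all libraries of 1 time point cannot be told apart from the time itself.

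Chaperones bind unfolded or newly made proteins and keep them from aggregating. In the cytosol, HSP70 and HSP110 proteins work with J-domain partners and pass clients to HSP90, and HSF1 drives many of these genes when proteins unfold under heat or other stress. The mitochondrial matrix folds imported proteins in the HSP60 and HSP10 barrel. The ER has its own HSP70 (HSPA5, also BiP) and HSP90 (HSP90B1, also GRP94), which the unfolded protein response raises, in part through XBP1 after its mRNA is spliced by the sensor IRE1. Macrophages draw on this ER machinery for secreted and surface proteins, and in mouse macrophages XBP1 also takes part in Toll-like receptor signalling.

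Library totals ran from 3910680 to 12972505 counts. The number of genes with any count was 13883 to 16132 per early library and 17470 to 20760 per late library, although late libraries were not the deeper ones. The first principal component (56% of the variance) parted early from late libraries, and on the second (11.1% of the variance) Early ACT 1 lay at 61.5, far from the -1.5 and -1.8 of the other early stimulated libraries. Levels below are CPM, counts scaled to a common library total and then by TMM factors, which adjust for library composition, and they are compared only within a gene. TET2, the gene of the title, was detected in every library, at 243.7 to 343.0 CPM early and 407.6 to 440.3 CPM late, and a gene count does not show edited alleles. CD14 and CD163 were expressed in every group, with means of 1447.9 to 2559.1 and 543.4 to 1312.1 CPM. The 10 CD14 monocyte and macrophage markers with a row, of 11 listed, summed to between 10753.3 and 11989.2 CPM early and between 5956.3 and 6931.0 CPM late. Neutrophil markers (6 of 7 with a row, mostly CSF3R and CAMP) summed to 651.2 to 759.5 CPM early and 322.4 to 411.4 CPM late. These sums move with time as the chaperones do, in the opposite direction, and their part in the results below was not tested. Single markers did not all follow the sums. Without stimulation, MSR1 (24.2 early and 33.7 CPM late), MRC1, MPO, ELANE and LTF had higher means late, and the other markers in both sums lower ones. Markers of plasma cells, which are rich in XBP1 and ER chaperones, summed to 0 to 1.36 CPM (4 of 6 with a row). Summed levels in single libraries were 1.51 to 8.9 CPM for T cell markers (5 of 7 with a row), 3.75 to 8.94 for B cell markers (6 of 6) and 7.79 to 14.1 for NK cell markers (4 of 6, mostly NCR1). They were 27.2 to 45.9 CPM for plasmacytoid dendritic cells (3 of 5), 28.1 to 47.5 for CD16 monocytes (3 of 5) and 1.11 to 3.31 for platelets and erythroid cells (4 of 6), with HBA1 at 0 throughout.

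In unstimulated macrophages, all 9 genes were higher at 19 than at 4.5 months, most of all HSPH1 and HSPD1 (2.88-fold and 2.42-fold). HSP90AB1 owes its name to a list of genes that passed between the times, so it is left out of the counts and medians between times that follow. The median log2 fold change was 0.63 over the other 5 cytosolic and mitochondrial genes and 0.39 over the 2 ER chaperones, against 0.02 over all 11826 genes tested. In stimulated macrophages, 4 of those 5 genes were again higher late, with a median of 0.65 against 0.05 over all tested genes. DNAJB1, HSPA5 and XBP1 did not pass the test there. Stimulation raised XBP1, HSPA5 and HSP90AB1 at 4.5 months, where 7.23% of tested genes were called. The calls of HSPA5 and HSP90AB1 were lost in 2 and 5 of 21 alternatives. At 19 months none of the 9 genes was called, as 0% of all tested genes were. The count of 8 higher of 8 in unstimulated cells stands beside a background in which 40.7% of tested genes differed between the times, 20.9% being higher and 19.8% lower late. The 5 higher of 8 in stimulated cells stand beside 38.8% of tested genes that differed, 19.1% higher and 19.7% lower late. Both counts include HSP90B1, whose calls in unstimulated and stimulated cells were lost in 14 and 13 of 21 alternatives. Calls rest on edgeR's quasi-likelihood test with Benjamini-Hochberg adjustment over all tested genes and an adjusted p under 0.05. In bulk RNA, more transcript per cell and more cells that express a gene cannot be told apart.

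**Figure D1:**
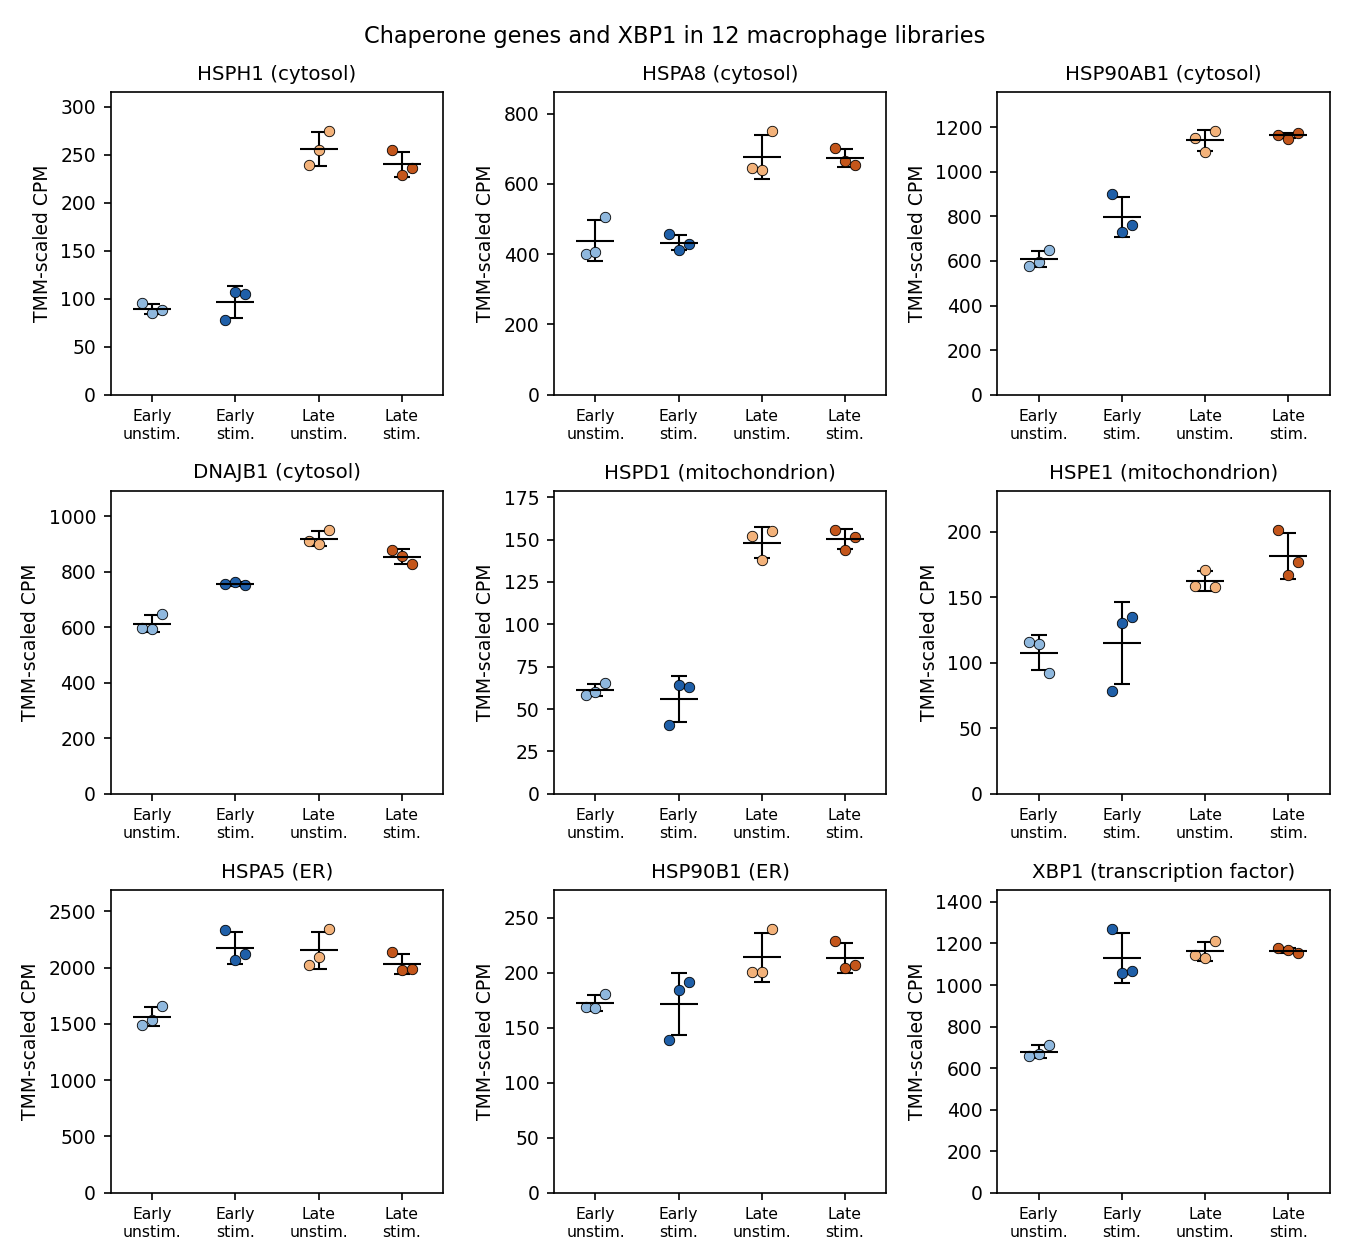
Levels of the 8 chaperone genes and XBP1 in each of the 12 libraries (points; y axis, TMM-scaled CPM from 0), by group on the x axis, with the mean and SD of 3 libraries as bars. HSPH1 and HSPD1 separate early from late libraries with or without stimulation. In the HSPA5 and XBP1 panels the early unstimulated group lies below the other 3, which overlap one another. That group is lowest for HSP90AB1 and DNAJB1 as well, where early stimulated libraries lie below the late ones.

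HSPH1 encodes HSP110, a nucleotide exchange factor for HSP70 that helps to dissolve aggregates. Its row, ENSMMUG00000013707, lies at positions 10687783 to 10713878 of chromosome 17 (build Mmul_8.0.1) in the authors' deposited table, the source of all positions given here. Levels were 95.1, 84.7 and 88.4 CPM in early unstimulated and 77.4, 107.0 and 105.1 CPM in early stimulated libraries. Late libraries held 239.2, 254.6 and 274.2 CPM unstimulated and 254.6, 228.9 and 236.6 CPM stimulated. Every late library was above every early one, and the stimulated and unstimulated libraries of a time overlapped. The log2 fold change of late over early was 1.52 ± 0.13 (SE) in unstimulated cells (adjusted p = 1.03e-09, edgeR quasi-likelihood test) and 1.31 ± 0.13 in stimulated cells (adjusted p = 2.15e-08). For stimulation the values were 0.12 ± 0.13 early (adjusted p = 0.628) and -0.09 ± 0.12 late (adjusted p = 0.998), and neither passed.

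HSPA8 (ENSMMUG00000004696, chromosome 14, 115890789 to 115898160) encodes HSC70, the HSP70 that cells make without stress. Early libraries held 401.4, 407.3 and 505.5 CPM unstimulated and 457.0, 412.5 and 429.5 CPM stimulated. In late libraries the level was 644.1, 638.5 and 749.0 CPM unstimulated and 702.6, 665.1 and 653.6 CPM stimulated. The highest early library lay below the lowest late one. The difference between times was 0.63 ± 0.11 on the log2 scale in unstimulated cells (adjusted p = 0.000107, edgeR) and 0.64 ± 0.11 in stimulated cells (adjusted p = 0.000108). Stimulation gave -0.02 ± 0.11 early and -0.01 ± 0.11 late, adjusted p = 0.954 and 0.998.

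HSP90AB1 encodes the constitutive cytosolic HSP90, which holds kinases and receptors near their active fold. The row used, ENSMMUG00000022686 (chromosome 4, 45373800 to 45384089), carries this name only through its description in the authors' deposited tables, which list only genes that passed between the times, so its calls between times are not independent of its naming. It was at 578.8, 595.6 and 648.5 CPM in early unstimulated and 899.5, 729.3 and 762.1 CPM in early stimulated libraries. It was at 1153.0, 1088.2 and 1180.8 CPM in late unstimulated and 1167.2, 1148.0 and 1173.6 CPM in late stimulated libraries. The 3 early unstimulated libraries were lowest, the 3 early stimulated ones came next, and the 6 late libraries lay above both. Late exceeded early by 0.91 ± 0.11 (log2) without stimulation (adjusted p = 3.52e-07, edgeR) and by 0.55 ± 0.11 with it (adjusted p = 0.000289). On early stimulation it rose by 0.39 ± 0.11 (adjusted p = 0.0243). That call was lost without Early CTL 1, 2 or 3 (0.35, 0.37 and 0.43, adjusted p = 0.148, 0.121 and 0.0551), with only the compared groups in the fit (0.38, adjusted p = 0.0871) and with library totals in place of TMM factors (0.11, adjusted p = 0.464). Over all alternatives its adjusted p ran from 0.000488 to 0.464. On late stimulation the value was 0.03 ± 0.11 (adjusted p = 0.998).

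DNAJB1 encodes HSP40, the J-domain protein that brings clients to HSP70. Its row bears the symbol itself, and it lies on chromosome 19 from 14543837 to 14547074. Its levels were 596.8, 592.9 and 649.3 CPM in early unstimulated, 754.8, 764.9 and 751.7 CPM in early stimulated, 909.7, 899.7 and 949.0 CPM in late unstimulated and 880.1, 855.7 and 827.4 CPM in late stimulated libraries. No 2 groups overlapped, and the order was early unstimulated, early stimulated, late stimulated, late unstimulated. Only the step between times without stimulation passed the test (0.59 ± 0.1 on the log2 scale, adjusted p = 5.51e-05, edgeR). Between times in stimulated cells the value was 0.18 ± 0.1 (adjusted p = 0.165), and it passed with upper-quartile factors (0.28, adjusted p = 0.0324), TMM factors from genes with a mean CPM of at least 10 (0.29, adjusted p = 0.0237), DESeq2 (0.2, adjusted p = 0.0131) and library totals (0.33, adjusted p = 0.00894), within a range of 0.00894 to 0.461 over all alternatives. On early stimulation the value was 0.3 ± 0.1 (adjusted p = 0.0675), which passed without Early ACT 1 (0.31, adjusted p = 0.00205), without Late CTL 3 (0.3, adjusted p = 0.0497) and in DESeq2 (0.31, adjusted p = 0.000148), within 0.000148 to 0.872 over all alternatives.

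HSPD1 and HSPE1 encode HSP60 and HSP10, the barrel and the lid of the mitochondrial chaperonin. Their rows, ENSMMUG00000010489 (148875956 to 148909938) and ENSMMUG00000016547 (148841437 to 148893917), share 17962 bases of chromosome 2 in the authors' deposited table, from 148875956 to 148893917. The spans include introns, and how reads from the shared stretch were counted is not given in the sources used here, so the values of both rows are uncertain. The authors name the second row HSPE1-MOB4, a readthrough transcript, whereas the name table gives it as HSPE1.

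HSPD1 was at 58.2, 59.9 and 65.4 CPM in early unstimulated and 40.3, 64.1 and 63.1 CPM in early stimulated libraries. Late libraries held 152.0, 137.7 and 154.9 CPM unstimulated and 155.4, 143.8 and 151.5 CPM stimulated. All 6 late libraries exceeded all 6 early ones, and the lowest value belonged to Early ACT 1. Late was above early by 1.28 ± 0.14 (log2) without stimulation (adjusted p = 1.04e-07, edgeR) and by 1.41 ± 0.14 with it (2.66-fold, adjusted p = 3.82e-08).

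HSPE1 was at 116.1, 114.3 and 92.0 CPM in early unstimulated and 78.6, 130.4 and 135.0 CPM in early stimulated libraries. It was at 158.3, 170.7 and 157.6 CPM in late unstimulated and 200.8, 166.8 and 176.5 CPM in late stimulated libraries. Late libraries again lay above early ones, with log2 fold changes of 0.6 ± 0.15 (adjusted p = 0.00279, edgeR) and 0.65 ± 0.15 (adjusted p = 0.00153) without and with stimulation. Stimulation moved neither mitochondrial gene past the threshold, with HSPD1 at -0.11 ± 0.14 early and 0.02 ± 0.14 late and HSPE1 at 0.11 ± 0.15 early and 0.16 ± 0.15 late. Without Early ACT 1, HSPE1 passed on early stimulation (0.31, adjusted p = 0.025, in a range of 0.025 to 1 over all alternatives).

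HSPA5 (ENSMMUG00000005217, chromosome 15, 13788500 to 13795201) encodes BiP, the main ER HSP70 and a brake on the unfolded protein response sensors. Early unstimulated libraries held 1494.0, 1536.6 and 1662.4 CPM. The other groups were higher, at 2333.5, 2064.1 and 2116.7 CPM in early stimulated, 2022.7, 2096.8 and 2337.7 CPM in late unstimulated and 2137.2, 1980.9 and 1985.5 CPM in late stimulated libraries. Those 3 groups overlapped one another and none overlapped the early unstimulated group. Late exceeded early by 0.46 ± 0.1 (log2) in unstimulated cells (adjusted p = 0.000963, edgeR), while the value in stimulated cells was -0.09 ± 0.1 (adjusted p = 0.521). HSPA5 rose by 0.47 ± 0.1 on early stimulation (adjusted p = 0.00457). This call was lost without Early CTL 1 (0.43, adjusted p = 0.052) and with library totals (0.19, adjusted p = 0.168), within 1.32e-06 to 0.168 over all alternatives. On late stimulation the value was -0.08 ± 0.1 (adjusted p = 0.998).

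HSP90B1 (ENSMMUG00000023469, chromosome 11, 103789452 to 103806769) encodes GRP94, the ER HSP90 needed for folding Toll-like receptors and integrins. Levels were 169.0, 167.6 and 181.0 CPM in early unstimulated and 139.0, 184.2 and 191.7 CPM in early stimulated libraries, and Early ACT 1 was the lowest of all 12. Late libraries were at 201.0, 201.0 and 239.2 CPM unstimulated and 229.0, 204.2 and 207.0 CPM stimulated, above every early library. The difference between times was 0.31 ± 0.13 (log2, adjusted p = 0.0476, edgeR) without stimulation and 0.31 ± 0.12 (adjusted p = 0.0498) with it, the smallest of the 9 genes in unstimulated cells. Both calls lay at the threshold and were lost in 14 and 13 alternatives, with adjusted p up to 0.215 (without Late CTL 3, log2 fold change 0.21) and 0.199 (without Late ACT 1). In stimulated cells without Early ACT 1 the value was 0.17 (adjusted p = 0.139). No response to stimulation passed, with adjusted p = 0.997 early and 0.999 late.

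XBP1 (ENSMMUG00000007215, chromosome 10, 70650078 to 70656602) encodes a transcription factor of ER folding, secretion and degradation genes, and a gene count does not separate its spliced from its unspliced mRNA. It was at 656.8, 667.8 and 713.4 CPM in early unstimulated and 1267.3, 1056.7 and 1066.8 CPM in early stimulated libraries. In late libraries XBP1 was at 1144.2, 1129.9 and 1213.3 CPM unstimulated and 1177.7, 1167.6 and 1152.1 CPM stimulated. Only the early unstimulated libraries were low, and the other 3 groups overlapped one another, with Early ACT 1 the highest of the 12. Without stimulation XBP1 was higher late by 0.78 ± 0.11 (1.72-fold, adjusted p = 2.68e-06, edgeR). With stimulation the times differed by 0.05 ± 0.11 (adjusted p = 0.742). At 4.5 months stimulation raised XBP1 by 0.73 ± 0.11 (1.66-fold, adjusted p = 3.45e-05), and at 19 months the log2 fold change was 0.00 ± 0.11 (adjusted p = 0.998).

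**Figure D2:**
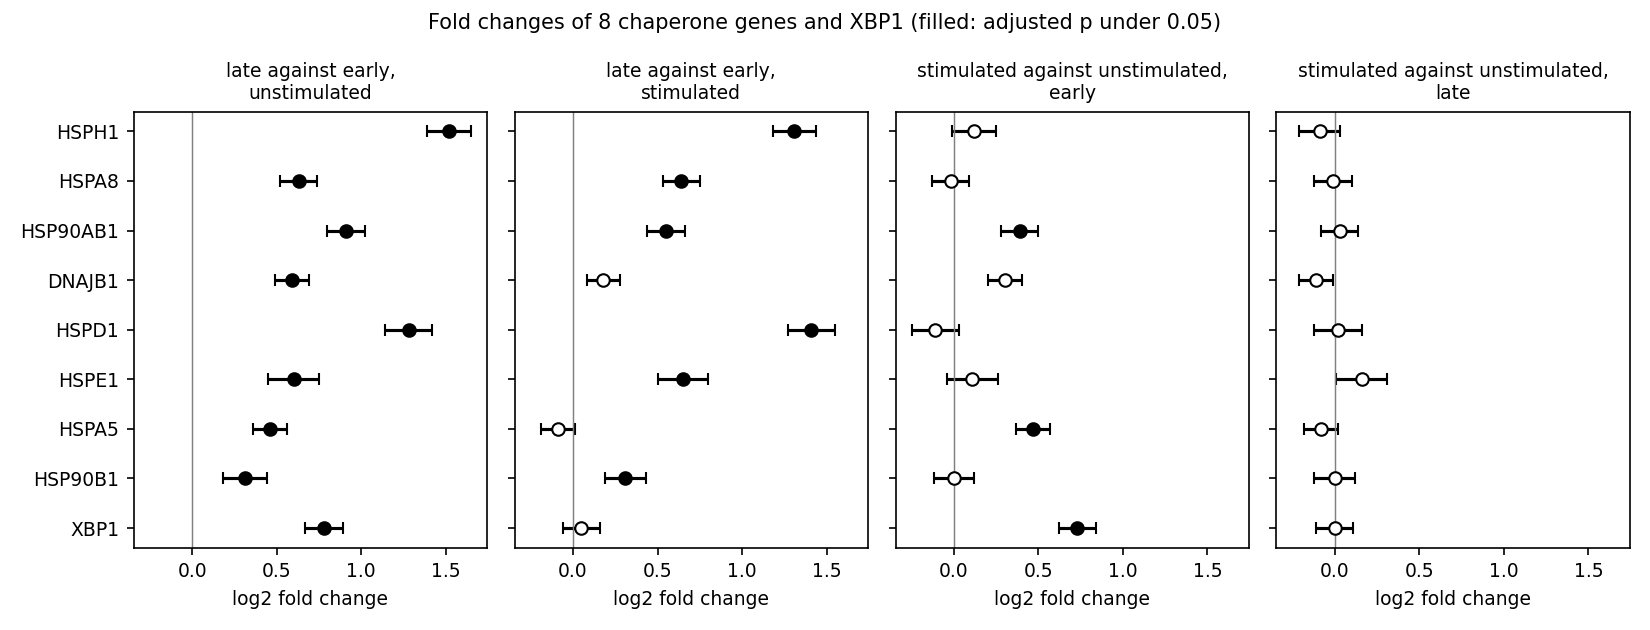
Log2 fold changes (x axis) of the 9 genes (y axis) in 4 comparisons, with SE as bars and filled points where the adjusted p was under 0.05. All 9 points are filled for late against early in unstimulated cells, 6 in stimulated cells, 3 for early stimulation and 0 for late stimulation.

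The 3 genes called on early stimulation, XBP1, HSPA5 and HSP90AB1, stand beside 7.23% of tested genes called, 4.57% being higher. With DNAJB1, 4 of the 9 genes had early groups that did not overlap, beside 25.7% of tested genes, 12.7% being higher when stimulated. The count was 1 without Early CTL 1, when XBP1 alone passed, and 5 without Early ACT 1, when DNAJB1 and HSPE1 were added. With library totals in place of TMM factors, the median of all genes on early stimulation shifted from 0 to -0.28, 1 member passed (XBP1, 0.45, adjusted p = 0.00308, edgeR), and the values of HSPH1 and HSPE1 turned negative (-0.15 and -0.17). XBP1 passed in every alternative, with adjusted p from 1.32e-15 to 0.00312. This comparison and that of late with early unstimulated cells share the early unstimulated libraries.

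On late stimulation no member was called, and log2 fold changes ran from -0.11 (DNAJB1) to 0.16 (HSPE1). The background was 0% of tested genes called by edgeR, with 527 genes and none of the 9 members at an unadjusted p under 0.05, and 15 genes but no member called by DESeq2. Of the 9 members, DNAJB1 alone had late groups that did not overlap, and it was lower when stimulated. Of all tested genes, 11% did not overlap there in either direction, with 5.42% higher when stimulated, the direction opposite to that of DNAJB1.

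The design also asks whether the response to stimulation differed between the times. XBP1 passed the test of this interaction (-0.73 ± 0.15 on the log2 scale, late response minus early response, adjusted p = 0.00721, edgeR), where 1.41% of tested genes did and 1.23% had a lower response late. HSPA5 gave -0.55 ± 0.15 (adjusted p = 0.0594), DNAJB1 -0.41 ± 0.14 (adjusted p = 0.197) and HSP90AB1 -0.36 ± 0.15 (adjusted p = 0.349), none past the threshold. HSPA5 and DNAJB1 passed in DESeq2 with all libraries (-0.56, adjusted p = 0.000265, and -0.42, adjusted p = 0.000666) and in edgeR without Early ACT 1 (-0.5, adjusted p = 0.000443, and -0.41, adjusted p = 0.00532). Over all alternatives the adjusted p ran from 0.000265 to 0.264 for HSPA5 and from 0.000666 to 0.561 for DNAJB1. With library totals XBP1 no longer passed (-0.48, adjusted p = 0.0814), within 1.57e-07 to 0.0814 over all alternatives. For HSPH1, HSPA8, HSPD1, HSPE1 and HSP90B1 the interaction lay between -0.22 and 0.13, with adjusted p of 0.711 or more.

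Without HSP90AB1, 8 of 8 genes did not overlap between times in unstimulated cells, all higher late, beside 52.8% of tested genes that did not overlap and 26.6% that were also higher late. In stimulated cells 6 of 8 did not overlap, beside 50.4% of tested genes, with 25.8% higher late. The mean log2 level of the 4 cytosolic genes, set against the early unstimulated mean, was 0.18 to 0.21 in early stimulated, 0.87 to 1 in late unstimulated and 0.84 to 0.92 in late stimulated libraries. Over the 3 cytosolic genes other than HSP90AB1 it was 0.06 to 0.17, 0.85 to 1.01 and 0.81 to 0.91 in the same groups. The 2 mitochondrial genes gave -0.52, 0.18 and 0.19 in early stimulated libraries, with Early ACT 1 the low one, and 0.92 to 1.13 in late libraries. For the 2 ER chaperones the same measure was 0.13 to 0.3 in early stimulated and 0.29 to 0.53 in late libraries. XBP1 was at 0.64 to 0.9 and 0.74 to 0.84. The mean of the 2 ER chaperones joins unlike genes. HSP90B1 was at 201.0 CPM or more in every late library and at 191.7 CPM or less in every early one. HSPA5 overlapped between early stimulated and late libraries.

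**Figure D3:**
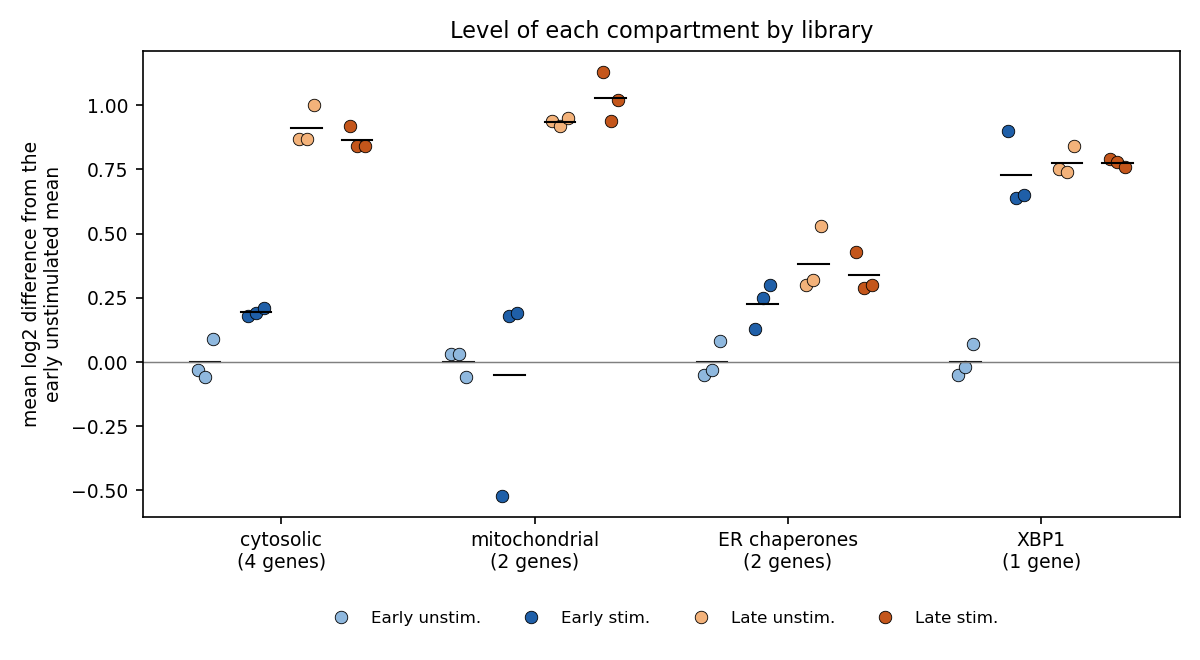
Mean log2 difference from the early unstimulated mean (y axis) of the 4 cytosolic genes, the 2 mitochondrial genes, the 2 ER chaperones and XBP1 (x axis), with a point per library and a line at each group mean. Cytosolic and mitochondrial genes are highest in the 6 late libraries, with 1 early stimulated library at -0.52 for the mitochondrial pair. Early stimulated and late libraries overlap for XBP1 and for the mean of the 2 ER chaperones. Of those 2, HSP90B1 was higher in every late library than in every early one, and HSPA5 was not.

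Ratios of counts between genes of 1 library do not depend on scaling, and they were compared between groups, since gene length differs between genes. For the HSP90 pair, HSP90AB1 over HSP90B1, the log2 count ratio was 1.82 ± 0.03 (SD, n = 3) in early unstimulated, 2.42 ± 0.11 in late unstimulated and 2.45 ± 0.09 in late stimulated libraries, with no overlap between early unstimulated and late. Early stimulated libraries gave 1.98, 1.99 and, in Early ACT 1, 2.69. HSP90AB1 owes its name to a list of genes that passed between the times. The shift of this ratio between times is thus not independent of that naming. For the HSP70 pair, HSPA8 over HSPA5, the log2 count ratio was -1.84 ± 0.11 early unstimulated and -2.33 ± 0.03 early stimulated, a shift towards the ER gene with no overlap. It was -1.67 ± 0.04 in late unstimulated libraries, which met the early unstimulated ones at -1.72 (Early CTL 3 and Late CTL 2). In late stimulated libraries it was -1.59 ± 0.02, so late and early stimulated libraries lay apart by more than the spread within any group. The log2 count ratio of HSPH1 to HSPA5 was -4.13 ± 0.14 in early unstimulated and -3.07 ± 0.03 in late unstimulated libraries, with no overlap. HSPD1 over HSPE1 was -0.81 ± 0.27 and -1.03 ± 0.07 in the early groups and -0.13 ± 0.16 and -0.27 ± 0.09 in the late groups, with no overlap between early and late. As the rows of HSPD1 and HSPE1 share a stretch and the authors name the second HSPE1-MOB4, this ratio is uncertain.

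Relative to both ER chaperones, XBP1 counts were lowest in early unstimulated libraries. The log2 count ratio of XBP1 to HSPA5 was -1.2 ± 0.02 in early unstimulated libraries and -0.95 ± 0.06, -0.89 ± 0.06 and -0.8 ± 0.05 in early stimulated, late unstimulated and late stimulated libraries. To HSP90B1 it was 1.98 ± 0.02 in early unstimulated, 2.73 ± 0.4 in early stimulated and 2.45 in both late groups (SD 0.09 and 0.08). In both ratios the early unstimulated libraries lay below all others, and Early ACT 1 (3.19) was above its group's other libraries (2.52 and 2.48) in the second. These ratios were described and not tested.

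**Figure D4:**
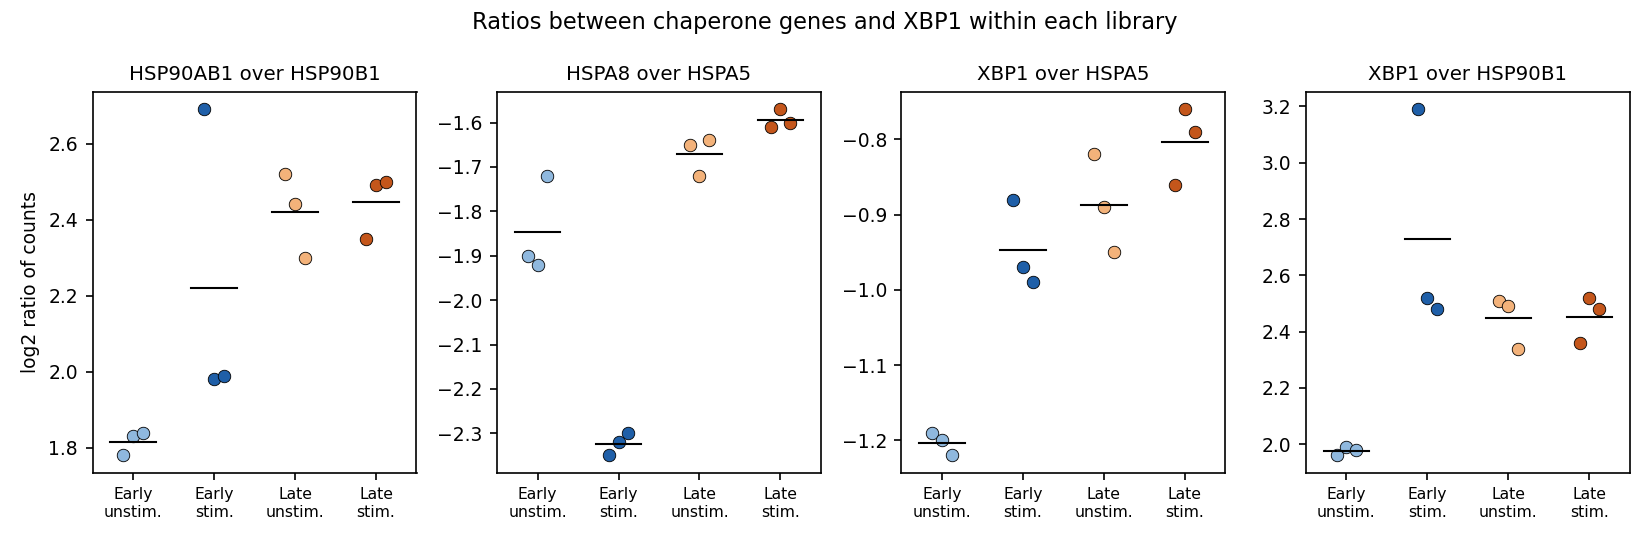
Log2 ratios of counts (y axes, which do not start at 0) between pairs of genes in each library, by group on the x axes, with a line at the group mean. HSP90AB1 over HSP90B1 is highest in late libraries and in Early ACT 1 (2.69), HSPA8 over HSPA5 is lowest in early stimulated libraries (mean -2.33), and both XBP1 ratios are lowest in early unstimulated libraries (means -1.2 and 1.98). HSP90AB1 was named through a list of genes that passed between the times, so its ratio between times is not independent of that naming.

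Other chaperone genes of the cytosol were read from a list of 41 cytosolic chaperones and cochaperones beside the 9 genes, of which 31 were tested. Late against early, 10 were higher and 4 lower in unstimulated cells and 14 higher and 6 lower in stimulated cells, that is 32.3% and 45.2% higher beside 20.9% and 19.1% of all tested genes. The list's median log2 fold changes were 0.22 and 0.37, against 0.02 and 0.05 over all genes. DNAJA1, a J-domain partner of HSC70, was higher by 1.11 ± 0.11 and 0.82 ± 0.11 in unstimulated and stimulated cells (adjusted p = 1.33e-08 and 1.79e-06, edgeR), from 199 ± 12.6 to 429.6 ± 25.3 CPM (SD, n = 3) without stimulation. HSPA4L, of the HSP110 family as HSPH1 is, was higher by 2.05 ± 0.26 and 2.38 ± 0.26 from 4.95 ± 0.12 CPM in early unstimulated libraries. DNAJA4 was higher by 1 ± 0.14 and 0.72 ± 0.13. FKBP5, a cochaperone of HSP90 and steroid receptors, was lower by log2 values of -0.71 ± 0.19 and -1.03 ± 0.19. HSF1, named after its values were seen, was lower late as well, at -1.1 ± 0.21 (adjusted p = 0.000207, edgeR) and -0.75 ± 0.21 (adjusted p = 0.00567), with means of 23.5 and 21 CPM early and 10.6 and 12.3 CPM late. DNAJB4, a J-domain protein named only in the authors' deposited tables and so outside the counts, was higher by 2.64 ± 0.22 and 2.27 ± 0.21. By edgeR none of the 31 genes was called on stimulation at either time, with 7 early and 1 late at an unadjusted p under 0.05. Of all 11826 tested genes, edgeR called 7.23% early and 0% late, with 2530 early and 527 late at an unadjusted p under 0.05. Of the 31, DESeq2 called 1 early and 0 late, and edgeR called 4 early without Early ACT 1. DNAJB4, outside the 31, was called by edgeR on early stimulation. Its means were 6.85 ± 0.798 CPM unstimulated and 11.4 ± 5.55 CPM stimulated (SD, n = 3), and these early groups overlapped.

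The TRiC chaperonin folds actin and tubulin, and prefoldin delivers clients to it. Of 13 tested subunits (14 listed), 6 were higher and 1 lower late in unstimulated cells (median 0.34) and 4 higher and 0 lower in stimulated cells (median 0.29). That is 46.2% and 30.8% higher beside 20.9% and 19.1% of all tested genes, whose medians were 0.02 and 0.05. CCT4 was higher by 0.85 ± 0.13 and 0.78 ± 0.12 (adjusted p = 8.96e-06 and 3.16e-05, edgeR) and TCP1 by 0.72 ± 0.12 and 0.73 ± 0.12. CCT6A (0.6 ± 0.13 and 0.9 ± 0.13) and CCT8 (0.42 ± 0.14 and 0.45 ± 0.14) were higher in both comparisons as well, and PFDN4 in unstimulated cells (1.45 ± 0.36, from 1.56 ± 0.194 CPM). The 7 calls in unstimulated cells became 4 without Early CTL 1 or Early CTL 2. No subunit was called on stimulation at either time by edgeR or DESeq2, with 1 early and 0 late at an unadjusted p under 0.05 in edgeR. The background in edgeR was 7.23% of all tested genes called early and 0% late.

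Of 13 tested mitochondrial chaperones and quality-control proteases (16 listed), 2 were higher and 3 lower late, in unstimulated as in stimulated cells. These shares, 15.4% higher and 23.1% lower, lay near those of all tested genes (20.9% and 19.8% unstimulated, 19.1% and 19.7% stimulated), and the medians were -0.11 and -0.22 against 0.02 and 0.05. HSPA9, the mitochondrial HSP70, was higher by 0.71 ± 0.11 and 0.37 ± 0.11 (adjusted p = 1.31e-05 and 0.00747, edgeR), and HSCB, which serves iron-sulfur cluster assembly, by 1.63 ± 0.5 and 1.78 ± 0.53 with group means of only 0.672 to 2.84 CPM. TRAP1, the mitochondrial HSP90, was lower, with log2 fold changes of -1.06 ± 0.33 and -2.03 ± 0.36, and so was the protease subunit SPG7 (-0.91 ± 0.18 and -0.79 ± 0.18). On early stimulation HSPA9 (0.39 ± 0.11, adjusted p = 0.0234) and TIMM44, which tethers HSPA9 to the import channel (1.1 ± 0.28, adjusted p = 0.0136), were called, beside 7.23% of all tested genes. The 5 calls between times in unstimulated cells were 3 without Late CTL 3, and the 2 on early stimulation were 0 without Early CTL 1 or Early CTL 3 and 1 without Early CTL 2, Early ACT 2 or Early ACT 3.

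Of 20 tested ER chaperones and folding enzymes beside HSPA5 and HSP90B1 (28 listed), 1 was higher and 2 lower late in unstimulated cells and 3 higher and 3 lower in stimulated cells. That is 5% higher and 10% lower beside 20.9% and 19.8% of all tested genes without stimulation, and 15% each way beside 19.1% and 19.7% with it. The medians were 0.00 and -0.04 against 0.02 and 0.05. The oxidase ERO1B was higher by 0.98 ± 0.15 and 0.46 ± 0.15 (adjusted p = 1.48e-05 and 0.0153, edgeR) and rose on early stimulation by 0.54 ± 0.15 (adjusted p = 0.0247). The prolyl isomerase PPIB was lower, at -0.54 ± 0.15 and -0.46 ± 0.15, and CRELD2, an ER stress target, was lower in unstimulated cells (-0.77 ± 0.26, adjusted p = 0.0216). In stimulated cells DNAJC3, a BiP cochaperone (0.66 ± 0.18), and the lectin chaperone CANX (0.34 ± 0.12) were higher late. The 3 calls in unstimulated cells were 7 without Early ACT 1 and 5 without Late CTL 3. The 6 in stimulated cells were 3 without any of the 3 late stimulated libraries in turn. ERO1B on early stimulation was the list's only call, and the list had 0 calls without any of Early CTL 1, 2 or 3 or Early ACT 2 or 3, and 2 without Early ACT 1.

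For ER-associated degradation and translocation, 20 of 27 listed genes were tested, with 3 higher and 4 lower late in unstimulated and 4 higher and 5 lower in stimulated cells. The shares of 15% and 20% higher and 20% and 25% lower lay near those of all tested genes (20.9% and 19.1% higher, 19.8% and 19.7% lower), and both medians were 0.03. SEL1L, the scaffold of the HRD1 ubiquitin ligase, was higher (0.43 ± 0.11 and 0.29 ± 0.11), while the ligase gene SYVN1 was lower (-0.48 ± 0.15 and -0.64 ± 0.14). The lectin gene OS9 (-0.44 ± 0.11 and -0.54 ± 0.11) and the translocon gene SSR2 (-0.57 ± 0.16 and -0.6 ± 0.16) were lower, and the signal peptidase gene SPCS2 was higher (0.47 ± 0.14 and 0.53 ± 0.14). HERPUD1, an ER membrane protein raised in ER stress, was called on early stimulation (0.41 ± 0.11, adjusted p = 0.024, edgeR) but not without Early CTL 1, Early CTL 2 or Early ACT 3, when no gene of the list was called.

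Among sensors and effectors of the unfolded protein response, 10 of 14 listed were tested beside XBP1, with 2 higher and 2 lower late in unstimulated and 1 higher and 4 lower in stimulated cells. The 20% each way in unstimulated cells lay near the 20.9% and 19.8% of all tested genes, and the 10% higher and 40% lower in stimulated cells stand beside 19.1% and 19.7%. The medians were -0.08 and -0.27 against 0.02 and 0.05. PPP1R15A, the phosphatase subunit GADD34 that restores translation after stress, was at 2552.5 ± 39.2, 4032.1 ± 386.7, 3109.6 ± 100.0 and 3062.1 ± 152.2 CPM (SD, n = 3) in early unstimulated, early stimulated, late unstimulated and late stimulated libraries. It rose by 0.66 ± 0.1 on early stimulation (adjusted p = 8.66e-05, edgeR). TRIB3, a pseudokinase induced by ATF4, rose by 0.61 ± 0.14 on early stimulation (adjusted p = 0.00476) and was lower late by log2 values of -0.66 ± 0.14 and -1.45 ± 0.14. MBTPS1, the protease that activates ATF6, was lower late in unstimulated cells (-0.55 ± 0.14), and in stimulated cells CREB3 was lower (-0.59 ± 0.12) and the sensor gene EIF2AK3, which encodes PERK, higher (0.55 ± 0.16). PPP1R15B, named only in the authors' deposited tables, was higher late (0.62 ± 0.15 and 0.49 ± 0.15). PPP1R15A and TRIB3 also passed the interaction (-0.68 ± 0.14, adjusted p = 0.0103, and -0.79 ± 0.2, adjusted p = 0.0379), beside 1.41% of all tested genes. These 2 calls were 0 with library totals and without Early CTL 1, Early CTL 2 or Late ACT 1, and 1 without Early CTL 3, Early ACT 2, Late CTL 2, Late CTL 3 or Late ACT 3. The 4 calls between times in unstimulated cells were 2 without any of Early CTL 1, 2 or 3 or Late CTL 1 or 2. On late stimulation no gene of the 6 lists was called by edgeR or DESeq2, with 5 of 107 at an unadjusted p under 0.05 in edgeR. Over all tested genes 527 of 11826 were at an unadjusted p under 0.05 there, and edgeR called 0%.

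**Figure D5:**
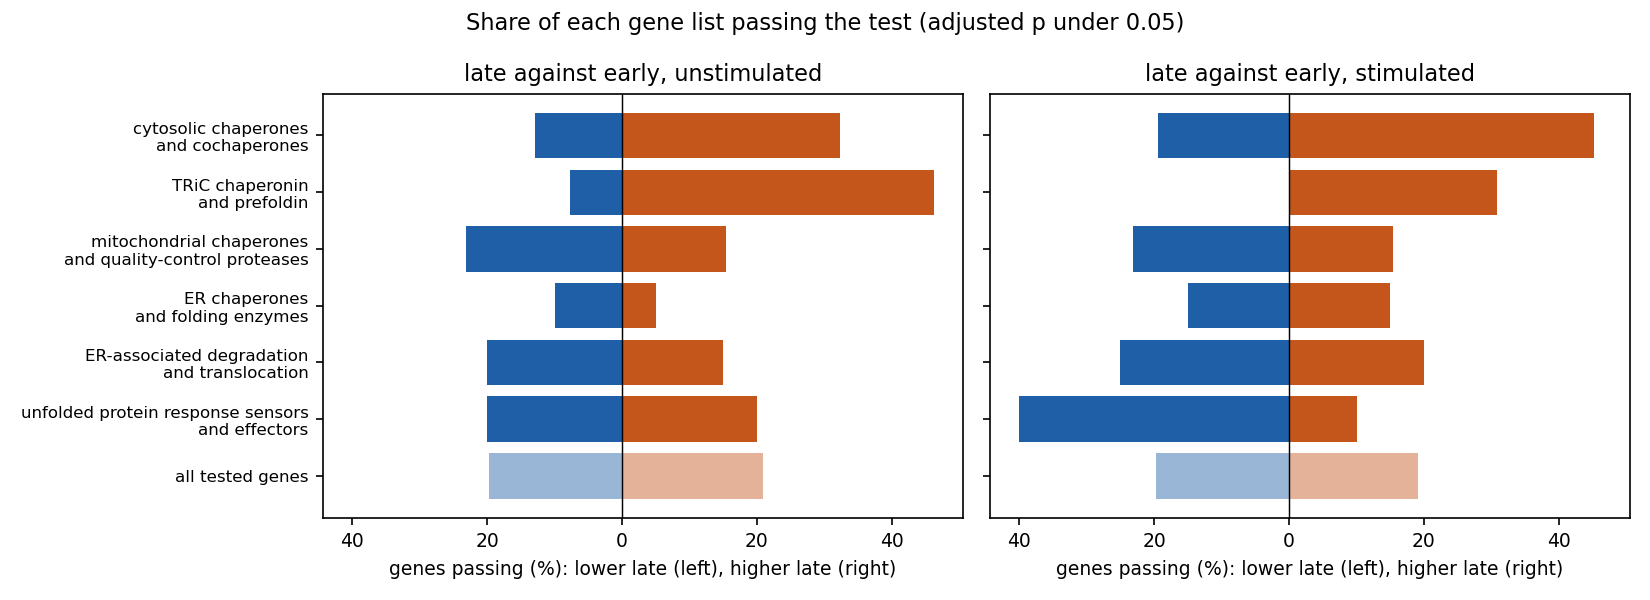
Share of tested genes in each of 6 lists, and of all 11826 tested genes, that were lower late (blue, to the left, percent) or higher late (orange, to the right) with an adjusted p under 0.05, in unstimulated and stimulated cells. Cytosolic chaperones (32.3% and 45.2%) and TRiC with prefoldin (46.2% and 30.8%) have higher shares to the right than all tested genes (20.9% and 19.1%), and the ER folding list has 5% and 15%.

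Genes whose levels ran most like those of HSPH1, HSPA5 and XBP1 were sought among 5490 named genes by Pearson's r of log2 CPM over the 12 libraries, which share their groups, so r mainly follows the 4 group means. Like HSPH1 were ARHGAP20 (r = 0.983), the TRiC subunit gene CCT4 (r = 0.983), the nucleolar gene GNL3 (r = 0.982) and HSPD1 (r = 0.982). CCT4 was at 85.2, 89.8, 152.9 and 154.5 CPM and GNL3 at 57, 61.6, 114.2 and 119.8 CPM in the early unstimulated, early stimulated, late unstimulated and late stimulated groups. Among the genes most like HSPA5 were GNPDA1 (r = 0.983), EIF1 (r = 0.961) and PLIN2 (r = 0.954), and among those most like XBP1 were EIF1 (r = 0.994), CLCF1 (r = 0.988) and ACSL5 (r = 0.985). EIF1, a translation initiation factor gene, was at 631.5, 1153.4, 1207 and 1207.4 CPM in the same order of groups, low only in early unstimulated libraries as XBP1 was.

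The authors' deposited tables of late against early cells list all 9 genes for unstimulated cells and 5 for stimulated cells, HSP90AB1 among them by the way it was named. The share of all genes that those tables list is not reported here. By edgeR, 40.7% and 38.8% of tested genes differed between the times in unstimulated and stimulated cells. In the authors' deposited table for unstimulated cells the log2 fold changes were 1.54 for HSPH1, 1.29 for HSPD1, 0.79 for XBP1, 0.48 for HSPA5 and 0.33 for HSP90B1. The authors' deposited table for stimulated cells gave 1.31 for HSPH1, 1.42 for HSPD1, 0.65 for HSPA8, 0.66 for HSPE1 and 0.55 for HSP90AB1, and it lists neither DNAJB1, HSPA5, HSP90B1 nor XBP1.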

How the data were processed

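RNA-seq was done on 12 libraries; per the labels' protocols, cDNA came from the SMART-Seq v4 kit, a method without strand information, and libraries from Nextera XT. Build Mmul_8.0.1 and bcl2fastq are named in the submitters' processing notes. Neither aligner nor read counter is given in the sources used here. The authors deposited a raw count per gene and library, as whole numbers. The authors' tables of late against early cells, per the file headers, hold a log2 fold change with its standard error, a score (their ratio), a mean normalised signal, and a p-value with its adjusted value, and they list only genes under 0.05.

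Of the 32386 rows, 29857 carried Ensembl identifiers and 2529 symbols, and 15706 had a usable name. Names came from the symbol rows, a name table or the authors' deposited tables, by symbol (as for PPP1R15B) or by description (as for HSP90AB1 and DNAJB4). Those tables list only genes that passed between the times. Genes named through them are also among the 5490 searched for genes like a member. Paralogs and pseudogene copies of HSP90, HSPA8 and HSPD1 may share reads, so their values are uncertain.

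Counts were fitted with edgeR 4.0.16 in R 4.3.3 (quasi-likelihood F test, robust; TMM factors of 0.879 to 1.1; filterByExpr by group, 11826 genes left, the 9 main rows among them; 1 coefficient per group over all 12 libraries). The common biological coefficient of variation was 0.143. There were 5 contrasts, with p-values adjusted by Benjamini-Hochberg over all tested genes and a threshold of 0.05. SE was taken as the size of the log2 fold change divided by the root of F. The fit was tested on simulated data with the same spread for every gene and changes in late unstimulated libraries only. That setting is simpler than these data, so it cannot show how far the calls here hold.

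The genes, lists and tests were chosen with earlier results of these data known. Named genes are all members, up to 4 genes per list and comparison with the smallest p among those called, and the 4 genes most like HSPH1, HSPA5 and XBP1 (mean CPM of at least 10, log2 CPM with a prior count of 2), of which some are not reported here. Alternatives were other scaling factors, filters, DESeq2 1.42.0, only the compared groups, a replicate block and leaving out each library. Plain library totals and other rows for HSP90AB1 and HSPE1 were added after seeing the data. Reads carry no molecular identifiers.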

Additional observations from a re-analysis of the deposited data

Results flagged for a closer look

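The response to stimulation differed between the times for 3 genes by the interaction test of edgeR's quasi-likelihood fit with Benjamini-Hochberg adjustment, beside 167 of all 11826 tested genes (1.41%). For XBP1 the late response was lower than the early one by a log2 difference of -0.73 ± 0.15 (SE, adjusted p = 0.00721). XBP1 rose in 3 of 3 early stimulated libraries over all 3 early unstimulated ones, and the late groups overlapped. PPP1R15A gave -0.68 ± 0.14 (adjusted p = 0.0103), and TRIB3 gave -0.79 ± 0.2 (adjusted p = 0.0379). Neither of these 2 passed without Early CTL 1, Early CTL 2 or Late ACT 1, or with library totals. Library Early ACT 1, which stood apart on the second principal component, had the highest XBP1 level of the 12 at 1267.3 CPM. Without it the interaction of XBP1 was -0.64 (adjusted p = 3.92e-06), and over all alternatives the adjusted p of XBP1 ran from 1.57e-07 to 0.0814.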

How the results depend on the processing

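Late against early, the count of members called, HSP90AB1 included, kept within 1.5 times its main value in every alternative, at 7 to 9 in unstimulated and 4 to 7 in stimulated cells, where the lowest values left out HSP90AB1 and HSPE1. HSP90B1 was the only member that lost a call in these comparisons. For early stimulation the main count of 3 became 1 with library totals and ran from 1 to 5 when each library was left out. For the interaction the main count of 1 became 3 with DESeq2 and 0 with library totals, and ran from 1 to 3 when each library was left out. No member was called on late stimulation under any alternative, and no call reversed. The causes of these shifts were not tested.

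The 18 pairs of libraries with the same replicate number in different groups had deviations that correlated at -0.09 to 0.1, none over 0.1. Pairs with different numbers reached -0.09 and 0.1 as well. No sign of pairing by number was thus seen, but with 3 libraries per group this check cannot exclude it. With the replicate block, 8, 5, 3, 0 and 1 members were called in the 5 comparisons, against 9, 6, 3, 0 and 1, the loss being HSP90B1 (adjusted p = 0.0599 and 0.0526, edgeR), and 1 of the unfolded protein response genes in the interaction against 2.

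Over all genes, calls on early stimulation were 855, against 503 with only the compared groups, 464 to 1554 when each library was left out and 2413 with library totals, of which 11.6% were higher against 63.3%. With library totals the early stimulation calls became 8 of the cytosolic, 1 of the TRiC, 5 of the ER folding and 6 of the degradation list, and TRiC calls between times in stimulated cells became 7. Interaction calls were 167, against 305 with DESeq2 and 95 to 546 when each library was left out, and with library totals 61.4% were higher against 13.2%. Late stimulation gave 0, against 2 with upper-quartile factors, 5 with no filter, 10 with only the compared groups, 15 with DESeq2 and up to 29 without Early ACT 1. The share of calls that were higher late was 51.3% in unstimulated cells, against 63.3% with upper-quartile factors, 64.3% with DESeq2 and 43.1% with library totals, and 49.3% in stimulated cells, against 61% with upper-quartile factors, 61.5% with TMM factors from genes of at least 10 CPM and 65.2% with library totals. Library totals moved the median of all genes to 0.2 late against early in stimulated cells and to 0.23 in the interaction, and upper-quartile factors to 0.15 between times. The medians of all genes between times, 0.02 and 0.05, hold for the filtered genes, and were 0.39 and 0.53 with no filter (26369 genes) and 0.36 and 0.34 in DESeq2 (18189 and 17678 genes). Depth limits rows under 10 CPM, such as HSCB and PFDN4, and no member was so low.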

Other observations

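Some rows that bear the names of HSP90AB1 and HSPE1 in the name table were not used as their main rows. ENSMMUG00000022685, which the name table calls HSP90AB1, was at 0.46 ± 0.11, 0.79 ± 0.79, 0.809 ± 0.445 and 1.98 ± 0.508 CPM (SD, n = 3) in early unstimulated, early stimulated, late unstimulated and late stimulated libraries, and it passed no test. ENSMMUG00000038252, also named HSPE1, was at 4.97 ± 0.752, 5.59 ± 1.98, 8.09 ± 2.4 and 9.22 ± 2.15 CPM and was higher late by 0.74 ± 0.29 in unstimulated (adjusted p = 0.045, edgeR quasi-likelihood test) and 0.79 ± 0.29 in stimulated cells (adjusted p = 0.0325). ENSMMUG00000040870, the remaining HSPE1 row, was at 3.37 ± 0.696, 3.39 ± 1.72, 4.91 ± 1.26 and 6.1 ± 2.8 CPM and passed no test.

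Some ER-related genes had their highest mean in early stimulated libraries, as PPP1R15A did, and those given here were picked after their values were seen. HERPUD1 was at 242.9 ± 18.5, 322.5 ± 10.5, 263.1 ± 22.9 and 262.4 ± 20.8 CPM, and TRIB3 at 81.9 ± 7.52, 125.5 ± 11.3, 51.7 ± 8.58 and 45.7 ± 6.02 CPM, in the same order of groups. The mean of HSPA5 was also highest in early stimulated libraries, at 2171.4 CPM beside 2152.4 CPM in late unstimulated ones. XBP1 and HSPA5 differed from HERPUD1 and TRIB3 in that their late unstimulated libraries overlapped the early stimulated ones. This contrast was seen in the values and was not tested.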
